A study of Drosophila melanogaster with 2 samples.

Results

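CG7296, CG7294 and CG17108 are 3 neighbouring protein-coding genes on chromosome arm 2L of Drosophila melanogaster, all more abundant in mature than in young adult hindguts. They were picked by name, with their fold changes in this comparison already known, and all 3 were found by identifier among the 23932 features of the authors' deposited table. RNA had been sequenced from hindguts of adults carrying byn-Gal4 (bynGal4), a driver line named for the hindgut transcription factor gene brachyenteron, which both ages shared. All animals were raised at 25 °C. Young guts were dissected right after the adults emerged, and mature guts after 4 days of adult life at 18 °C, so age and adult temperature changed together and cannot be told apart. Each age had 3 replicates of 100 to 150 pooled guts, and the labels name ileal cells as the cell type. No line without the driver is among the samples used here.

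The adult hindgut carries urine and digested food from the midgut to the rectum and takes back water and ions. Its wall is a single epithelium under a chitin-lined cuticle, wrapped in visceral muscle, and the ileum is its long tubular stretch. A symbol made of CG and a number marks a gene predicted from the genome sequence that has not been given a name for a role. The files and the annotation name no function for CG7296, CG7294 or CG17108, and none is given to them here. Clusters of small genes that lie side by side are common in insect genomes.

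In the Ensembl annotation of genome build BDGP6, the build that the submitters' processing notes also name, the 3 genes lie on the minus strand of 2L. CG7296 (FBgn0032283) runs from 10686124 to 10687066, CG7294 (FBgn0032284) from 10688734 to 10689271 and CG17108 (FBgn0032285) from 10692940 to 10694103. From the first base of CG7296 to the last of CG17108 the cluster measures 7980 bases, and no other annotated feature lies in it or overlaps a member. The gap from CG7296 to CG7294 is 1667 bases and the gap from CG7294 to CG17108 is 3668 bases. Each gene is made of 1 exon in every annotated transcript. The reading frame of CG7294 is the shortest, at 127 codons before the stop, followed by CG7296 at 161 and CG17108 at 342. The frame fills 88.1% of the exon in CG17108, 70.8% in CG7294 and 51.2% in CG7296. For CG7296 the longest frame was set against the exon bases of its 2 annotated transcripts together.

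The table that holds these values has, for each feature, a mean and 1 fold change between the ages, so no value per library can be given. The mean was read as the average of normalized counts over the 6 libraries. Gene names were checked by the cytoplasmic ribosomal protein genes, which every cell transcribes strongly. The nearest of these on each side, RpS27A at 275.7 kb and RpL9 at 308.7 kb from the cluster, are listed by the authors' deposited table at means of 61348 and 52402. Of 17 such genes on 2L, 16 had a mean of at least 28246, and RpL5 near the right end of the arm was the exception at 145.1 in the authors' deposited table. Elsewhere, 53 such genes on 2R, 3R and X had a median mean of only 0.98 in the authors' deposited table, so levels and fold changes are compared on 2L alone.

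All 3 genes were higher in mature guts, by 6.37-fold to 16.4-fold, but they differed widely in level. Levels are compared per kb of exon, since a longer transcript gives more reads. CG7296 had a mean of 55035 normalized counts per kb, CG17108 33779 and CG7294 1723, computed from means that the authors' deposited table lists as 51898, 39319 and 927.2. The outer genes of the cluster were thus the abundant ones, and the gene between them stood 31.9-fold below CG7296 and 19.6-fold below CG17108 per kb. By mean per kb, CG7296 ranked 22, CG17108 40 and CG7294 373 among the 2650 protein-coding genes of 2L. The summed means of the 3 genes made up 0.955% of the summed mean of 2L.

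Fold changes are given for young against mature, a negative log2 value being higher in mature guts. CG7296 had a log2 fold change of -4.04 (standard error 0.12) in the authors' deposited table, or 16.4-fold higher in mature, with a 95% interval from 13.97 to 19.4. CG7294 followed at -3.44 (standard error 0.22) in the authors' deposited table, or 10.9-fold, with an interval from 8.05 to 14.7. CG17108 had the smallest of the 3 changes, -2.67 (standard error 0.10) in the authors' deposited table, or 6.37-fold, with an interval from 5.54 to 7.33. The interval of CG17108 lay below those of both other genes, while those of CG7296 and CG7294 overlapped between 13.97 and 14.7. All 3 passed the mean filter of the DESeq2 test, and the authors' deposited table gives an adjusted p of 1.93e-245 for CG7296, 1.62e-52 for CG7294 and 3.96e-145 for CG17108. The genes were chosen for this difference, so these p-values support nothing about them. With the call set at an adjusted p below 0.05, 20.2% of the 2102 tested features on 2L were higher in mature and 19.9% in young guts. In RNA from pooled hindguts, fewer cells of a type and less RNA per cell cannot be told apart.

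**Figure D1:**
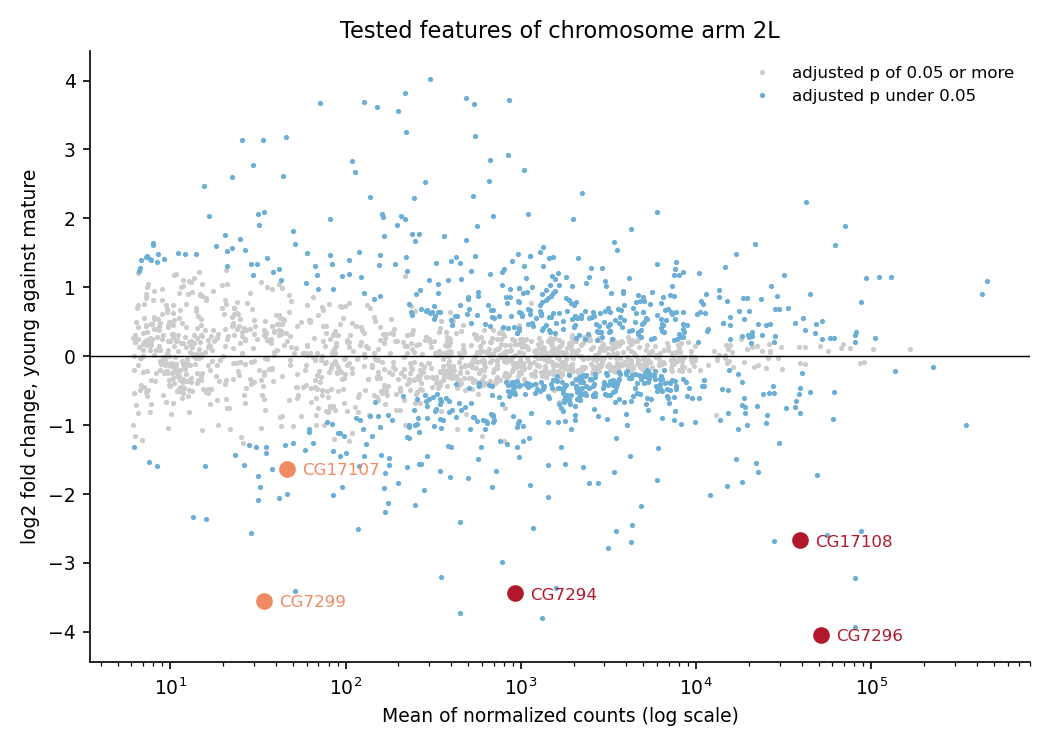
Each point is a tested feature of chromosome arm 2L, with its mean of normalized counts on a log x axis and its log2 fold change for young against mature on the y axis, both from the authors' deposited table. The members (dark red) lie at the lower edge, CG7296 at -4.04 being the lowest of the 2102 features, and the left neighbours CG17107 and CG7299 (orange) lie at far lower means.

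Among the 2102 tested features of 2L, CG7296 ranked 1, CG7294 6 and CG17108 15 by change toward mature. For CG7296, 65 other tested features of 2L had a mean within 2-fold of its own; their median log2 change was 0.12, and the lowest was that of Tig, the matrix protein tiggrin, at -3.93 in the authors' deposited table. Of these 65, 8 were called and at least 2-fold higher in mature, CG17108 among them. For CG17108, 7 of 79 features of like mean were, CG7296 among them, and for CG7294, 24 of 478. Over all tested features of 2L that share was 5.95%. The standard error of each member was larger than the median of features of like mean, 0.12 against 0.080 for CG7296, 0.22 against 0.15 for CG7294 and 0.10 against 0.081 for CG17108. Of the 125 features on 2L that were called and at least 2-fold higher in mature, CG7296 ranked 5 by mean and CG17108 7. Both also belong to the 5 genes with only a CG symbol among the 10 most abundant of those features, beside CG16713, CG3604 and CG16704.

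A level at each age can be worked out from the mean and the fold if the ages weigh equally in the mean and the fold is the ratio of the age means. On that basis CG7296 went from 6310 normalized counts per kb in young guts to 103760 in mature guts. CG17108 went from 9162 to 58396 and CG7294 from 290.5 to 3156 normalized counts per kb. The order of the abundant pair therefore turned between the ages: CG7296 stood at 0.69 times CG17108 in young guts and at 1.78 times in mature guts. CG7294 stayed the least abundant of the 3 at both ages, 21.7-fold below CG7296 in young and 32.9-fold below it in mature guts. None of the 3 was near 0 in young guts on this reckoning. The table gives no error for a mean, so these levels carry none.

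**Figure D2:**
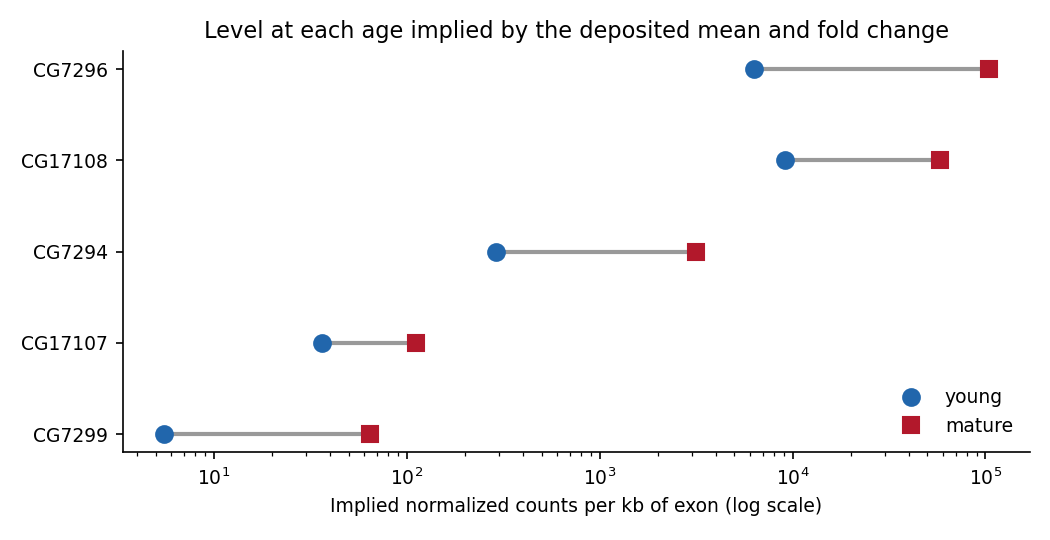
Normalized counts per kb of exon (log x axis) implied for young guts (blue circles) and mature guts (red squares) for the 3 members and their left neighbours CG17107 and CG7299; no error can be given. CG7296 rises from below CG17108 in young guts to above it in mature guts, and CG7294 lies far under both at each age.

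The rise toward mature guts did not stop at the members on the left side. CG7299 (FBgn0032282, 2L, 10683427 to 10684409, minus strand), a gene of 1 exon and 177 codons that lies 1714 bases left of CG7296, had a log2 fold change of -3.55 (standard error 0.52, adjusted p = 1.18e-10 by DESeq2) in the authors' deposited table. That is 11.7-fold higher in mature, with a 95% interval from 5.79 to 23.7 that contains the folds of CG7296, CG7294 and CG17108. CG17107 (FBgn0032281, 2L, 10681902 to 10682528), on the plus strand with 1 exon and 96 codons, had a log2 fold change of -1.63 (standard error 0.48, adjusted p = 0.00305 by DESeq2) in the authors' deposited table. It was thus 3.09-fold higher in mature, with an interval from 1.62 to 5.92. Neither has a function named in the files. Both were scarce, and the authors' deposited table lists CG7299 at a mean of 34.4 and CG17107 at 46.5, or 35.0 and 74.1 per kb, so that CG7294 exceeded them 49.2-fold and 23.3-fold per kb. Of the 467 tested features of 2L at means of 10 to 100, 32 (6.85%) were called and at least 2-fold higher in mature. The members and these neighbours form an unbroken series of 5 tested genes over 12202 bases, all of 1 exon, and CG17107 is the only one on the plus strand. An INE-1 transposable element copy of 56 bases lies between CG17107 and CG7299 and was listed at 0.

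Of the 5 nearest annotated features on each side of the cluster, 5 were tested and 2 of these were higher in mature guts, both on the left, none being higher in young; on 2L as a whole 20.2% of tested features were called higher in mature. On the left, CG17105 and lncRNA:CR44180 were listed at 0 like the INE-1 copy. On the right, CG7300, which begins 896 bases from CG17108 on the same strand, was listed at 0, and asRNA:CR44181 opposite it had a mean of 0.30 in the authors' deposited table. Lip1 and Lip2, which encode acid lipases, had log2 fold changes of -0.51 (standard error 0.52, adjusted p = 0.522 by DESeq2) and -0.71 (standard error 0.51, adjusted p = 0.322 by DESeq2) in the authors' deposited table. At means of 11.0 and 6.36, their intervals, from -1.52 to 0.51 and from -1.72 to 0.29, include a 2-fold difference toward mature. Fold changes at such low means may have been drawn toward 0 in the deposited fit, which was not tested, so these intervals set no firm limit. The standard error of asRNA:CR44181, at its mean of 0.30, was 0.26, smaller than those of Lip1 and Lip2. CG6415, at a mean of 238.1, had a log2 fold change of 0.33 (standard error 0.26, adjusted p = 0.371 by DESeq2) in the authors' deposited table, with an interval from -0.17 to 0.83; it overlaps Lip2, and the strand setting of the counting is not given in the sources used here. Of the 10 nearest features right of CG17108, 6 were tested and DESeq2 called none in either direction, nor did any reach an unadjusted p under 0.05.

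Farther left, CG17104, with a mean of only 11.1, had a log2 fold change of 0.30 (standard error 0.52, adjusted p = 0.733 by DESeq2) in the authors' deposited table. Its interval ran from -0.72 to 1.32, with the same limit at a low mean. CG31871, 14636 bases left of the cluster and with a mean of 138.0, was called higher in mature guts, with a log2 fold change of -0.87 (standard error 0.34, adjusted p = 0.0374 by DESeq2) in the authors' deposited table. That call was lost when adjusted with no low-mean filter (adjusted p = 0.0535). Within 50 kb on each side, 35 features surround the members, of which 15 were listed at 0 and 15 were tested. Of these 15, 3 (CG31871, CG17107 and CG7299) were called higher in mature and none in young by DESeq2. On 2L as a whole, 20.2% of tested features were called higher in mature and 19.9% in young, so the mature count is near the share of the arm. Toward young, only CG17124 (1 feature) had an unadjusted p under 0.05 by DESeq2. The median log2 change of the tested features without the series of 5 was 0.014. Right of the cluster, 7 tested genes within 50 kb had a mean of at least 500, with log2 changes from -0.20 (CG12299, standard error 0.19) to 0.20 (CG17124, standard error 0.10) in the authors' deposited table, and DESeq2 called none, CG17124 being the 1 with an unadjusted p under 0.05. Among them, EMC3 encodes a subunit of the ER membrane protein complex and Nup107 a nuclear pore protein; the others are CG6443, Dpy-30L1 and CG6729. CG17124, with a mean of 4354, had the highest mean of the 35 features, below both CG17108 and CG7296.

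How often neighbouring genes on 2L were higher in mature together was then counted, without a test. Tested features were taken in order along the arm. In 5 series of at least 3 neighbours, that of the members included, each feature was called and at least 2-fold higher in mature. Taken singly, 5.95% of tested features were, a share of features that gives no expected number of series. The series with CG7296, CG7294 and CG17108 was the longest of the 5, with 5 features. With features at a mean of at least 100 alone it was not, as it then held the 3 members and the series of Idgf genes held 4. Toward young guts there were 4 such series, the longest with 7 features, so longer series than this one exist on the arm. The Idgf1, Idgf2 and Idgf3 genes, which encode secreted chitinase-like proteins, formed another with CG5888, at log2 changes from -1.16 to -1.83 over 55020 bases. CG5888 overlaps Idgf1 and Idgf2 on the opposite strand. CG31810 and CG31809 (-2.69 and -2.78 in the authors' deposited table) stood with a Doc4 transposable element copy that lies inside CG31809. Nlg2, a neuroligin, stood with 2 long noncoding RNAs and a diver element copy that lies inside Nlg2. Ttc30, an intraflagellar transport gene, stood with 2 other long noncoding RNAs. Neighbours in the series counted can thus share bases, whereas no annotated feature overlaps a member. With protein-coding genes alone, 2 series remained, that of the members and that of the Idgf genes. After the fold changes were recentred on the ribosomal protein genes of 2L, a shift of 0.15 (log2), there were 12 series; that of the members kept its 5 genes and the Idgf series then also had 5.

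**Figure D3:**
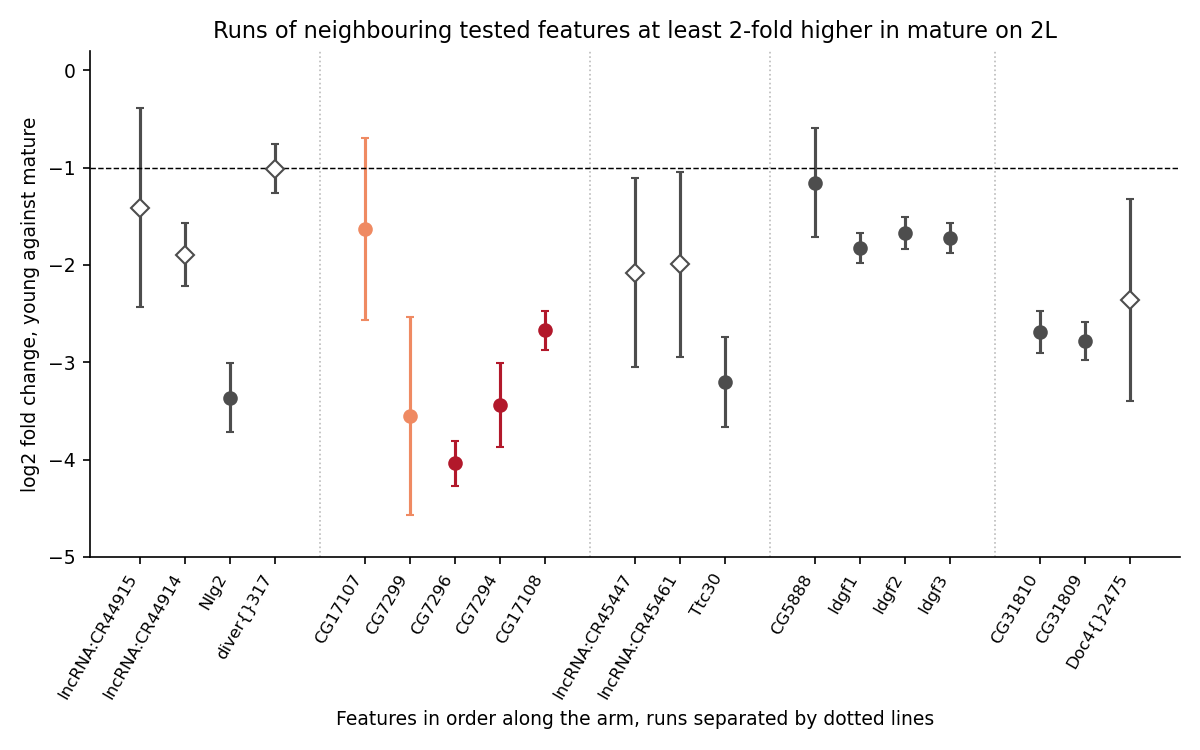
Log2 fold change for young against mature (y axis) with 95% intervals for each feature of the 5 series of neighbouring features that were at least 2-fold higher in mature on 2L, in order along the arm; filled circles are protein-coding genes, open diamonds are noncoding RNAs or transposable element copies, and the dashed line marks a 2-fold change. The members (dark red) and CG17107 and CG7299 (orange) span -1.63 to -4.04, and the Idgf genes lie together near -1.7.

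The members share a structure that few tested genes have, a single exon. Of 225 tested protein-coding genes of 1 exon on 2L, 39 (17.3%) were called higher in mature, against 359 of 1597 (22.5%) with several exons. At least 2-fold, the counts were 21 of 225 (9.33%) and 89 of 1597 (5.57%). The members are 3 of those 21, and CG7299 and CG17107 are a further 2. Toward young guts the 2-fold counts were 22 of 225 and 118 of 1597, so the larger share among genes of 1 exon was not particular to mature guts. Genes of 1 exon had a lower median mean, 112.6 against 1074, and a median coding length of 768 bases against 1461. Of the 10 features with the highest means among those at least 2-fold higher in mature on 2L, 3 had 1 exon, namely CG3604, CG7296 and CG17108.

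By fold alone, other genes of 2L resembled the members without lying near them. Likeness was taken as the absolute difference from the members' median log2 change of -3.44, a single contrast between 2 ages, over 1425 protein-coding genes with a mean of at least 100. That cut leaves out scarcer features of like fold. Among these are the left neighbour CG7299 (mean 34.4, -3.55), 1714 bases from the cluster, and CG18557 (mean 51.6, -3.41) in the authors' deposited table. The 5 closest, in order, were Nlg2 (-3.36), CG3604 (-3.21), Ttc30 (-3.20), CG13116 (-3.73) and CG17264 (-3.80) in the authors' deposited table. CG3604 and CG13116 also have 1 exon and short frames, of 132 and 209 codons. The nearest of the 5 to the cluster, CG13116, lies 955178 bases away. Per kb, CG3604 had a mean of 127921 normalized counts, above CG7296, whereas the others lay between 165.4 and 473.8, below CG7294.

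The authors' deposited list of 91 mature features holds all 3 members and CG7299, but not CG17107. It is ordered by fold change and places CG7296 3, CG7299 8, CG7294 9 and CG17108 25. The list spans all arms, including 2R, 3R and X, where names did not pass the check, the ribosomal protein genes having a median mean of only 0.98. These places therefore hold only within the list. It was drawn from the same comparison and adds no independent evidence.

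Markers of the tissue and of other cell types were compared on 2L, where all but 1 of the ribosomal protein genes passed the name check. All 5 hindgut genes there were detected, from wg at a mean of 504.6 to drm at 13433 in the authors' deposited table, with 3 higher in young and 2 (dpp and bowl) higher in mature guts. Both visceral muscle genes were abundant and split, Mhc at a log2 change of 0.90 and Msp300 at -0.21 in the authors' deposited table. Of 3 hemocyte genes, NimC1 and Sr-CI (means of 26.6 and 35.7) were higher in young and crq was higher in mature. The renal tubule genes Uro (mean 600.3, log2 -1.16, adjusted p = 0.0732 by DESeq2) and Irk3 (mean 453.3, log2 -0.016, adjusted p = 0.987 by DESeq2) were not called. No marker on 2L was listed at 0, and their part in the difference of CG7296, CG7294 and CG17108 was not tested. Values per age cannot be given for the summed lists, whose summed means were 24542 for hindgut, 565148 for muscle, 8915 for hemocytes and 1054 for renal tubules. The fat body, tracheal and midgut markers lie off 2L and were not used here. For the same reason byn was left out of the hindgut list, sls out of the muscle list and Irk1 and Irk2 out of the renal tubule list.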

How the data were processed

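RNA was extracted with Trizol and sequenced in pairs on a NovaSeq, per the labels' protocols. The submitters' processing notes name Trim Galore, HISAT2, DESeq2 and build BDGP6. How reads were counted, with which strand setting and annotation release, is not given in the sources used here. Per the file headers, the deposited mean is a signal, the average of DESeq2-normalized counts over all libraries. Fold changes and standard errors deposited by the authors were read as log2 values, the base DESeq2 reports. The Wald score, p-value and adjusted p-value deposited by the authors come from DESeq2's Wald test.

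Of 23932 features, 23851 matched the Ensembl annotation of BDGP6, which gave symbols, positions (1-based) and exon lengths; features without an adjusted p counted as untested. Fold intervals are the log2 change ± 1.96 standard errors. The planned edgeR test needs counts for single libraries, which were not analysed here, and read depth is unknown. Protein and promoter sequences were not used here. As the labels do not say how replicates were formed, p-values reflect the spread between libraries only, which may be technical. The members, lists and tests were chosen with earlier results of these data known. Named genes were the members, the 5 nearest features per side, members of other series, the 5 closest folds, and others where a count needed them, chosen after their values were seen. The alternatives were recentring, other thresholds, windows and gene sets. The recentred test and the series count were tested on simulated data. Values and figures were made with scipy 1.17.1, numpy 2.4.6, pandas 2.3.3 and matplotlib 3.10.9 under Python 3.11.15.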

Additional observations from a re-analysis of the deposited data

How the results depend on the processing

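CG7296, CG7294 and CG17108 kept their direction and call under both recentrings, a threshold of 0.01, no low-mean filter and a Wald test against a 2-fold change. These settings reuse the values for which the genes were chosen, so the kept calls add no support. CG17107 lost its call in the 2-fold test, and CG31871 lost its call at 0.01, with no low-mean filter and in the 2-fold test. The 2 flanking features higher in mature became 3 with 10 features per side or with protein-coding genes alone, and stayed 2 after recentring. The 5 series of neighbours became 1 within the length of the member cluster, a limit that the members meet by construction, and, chosen after seeing the data, 2 with protein-coding genes alone, 3 with a mean of at least 100 and 12 after recentring on ribosomal protein genes. The cut at a mean of 100 removes CG7299 and CG17107 by construction. No paired analysis was possible because the table gives 1 value for all libraries together; for the same reason no replicate was left out, and edgeR and other normalizations were not run. Fold changes of scarce features, CG7299 and CG17107 among them, may have been drawn toward 0 in the deposited fit, which was not tested.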
